A study of Mus musculus with 2 samples.

Results

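The semaphorins, neuropilins and plexins are described here in MC3T3-E1 cells, a clonal pre-osteoblast line from mouse calvaria, cultured with the crosslinking aldehyde formaldehyde at 100 µM or at 300 µM. Each dose is represented by 1 RNA sequencing library, and untreated cells were not analysed here. The labels give no length of exposure, and the same line, medium and serum are described for both doses. The 10 genes were picked by symbol from 17215 listed genes: Sema7a, Sema3a, Sema3c, Sema3e, Sema4b, Nrp1, Nrp2, Plxna1, Plxnb2 and Plxnc1. Sema7a was chosen by its ratio between the doses, the lowest of all genes compared, and the others were named to be set beside it. The contrast that chose Sema7a is the only contrast of the series, so its values are a description, and with 1 library per dose no p-value was computed.

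Semaphorins are secreted or membrane-bound signals that steer cell shape, adhesion and migration, first studied in growing axons and also made by bone cells. Plexins are their main receptors and act on small GTPases through their intracellular part. Neuropilins are co-receptors that bind secreted semaphorins of class 3 and also vascular endothelial growth factors. In bone, Sema3a made by osteoblast lineage cells is known to restrain osteoclasts, and Sema7a, held on the membrane by a lipid anchor, is known to signal through a beta1 integrin and through plexin C1.

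Depth, estimated from the steps between low values, was about 18500000 fragments at the lower dose and 19400000 at the higher. The labelled cell type was checked by its markers. Of 10 osteoblast lineage markers 9 reached a mean of 1 FPKM (fragments per kilobase, relative to all mapped fragments) over the 2 libraries. Col1a1, a chain of the main bone collagen, stood at 2065 and 1714 FPKM. Alpl passed narrowly, at 0.98 and 1.06 FPKM, and Ibsp stood at 1.83 and 1.77 FPKM. Bglap (osteocalcin) was listed at 0 at 100 µM and stood at 0.49 FPKM at 300 µM. The lineage transcription factor genes Dlx5 and Runx2 stood at 32.9 and 7.04 FPKM and at 7.99 and 3.60 FPKM. These levels were 4.67-fold and 2.22-fold lower at 300 µM. After adding 1 to each FPKM, their log2 ratios were -2.08 and -0.97. Sp7, another lineage transcription factor gene, stood at 7.21 and 9.47 FPKM, a log2 ratio of 0.35 after adding 1. The median log2 ratio of the 9 markers was -0.03. On that scale Dlx5 was the 1 marker of the 9 at least 2-fold lower (11.1%), where 29.8% of all genes compared were. The 6 endothelial markers summed to 0.13 and 0.15 FPKM, with Kdr and Tie1 listed at 0 in both. Of 6 neuron markers only Tubb3, a tubulin gene, reached the mean of 1 FPKM, with 31.1 FPKM in the lower-dose library and 15.3 FPKM in the higher-dose library. Map2 stayed below that mean but was higher in the higher-dose library (0.72 FPKM, against 0.34 FPKM in the lower-dose library). Snap25, Syp, Rbfox3 and Stmn2 stood at 0.21 FPKM or less. The 6 macrophage and blood cell markers summed to 9.42 and 2.17 FPKM, 2 of them (Cd14 and Cd68) reaching the mean of 1 FPKM, with Adgre1 at 0 in both. Their part in the differences below was not tested. Of the 5 osteoclast markers found, Ctsk made nearly all of the summed 41.3 and 44.4 FPKM, and Acp5 was at 0. The 4 adipocyte markers found summed to 0 and 0.02 FPKM. In bulk RNA, fewer cells of a type and less RNA per cell cannot be told apart.

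The sequences just upstream of the transcription start are shown for 4 members that differ in their behaviour between the doses: Sema7a and Sema4b, both far lower at 300 µM, Sema3a, the leading semaphorin at 300 µM, and Plxnb2, the leading plexin at both doses. They are the 250 bases before the start as RefSeq gives it on GRCm38.p6, read 5′ to 3′ on the gene's strand, and are shown because all 4 belong to the same ligand and receptor system. They lie at chr9:57939862-57940111 (plus strand), chr7:80186620-80186869 (plus), chr5:13396534-13396783 (plus) and chr15:89180789-89181038 (minus). For Sema4b and Plxnb2 the outer of 2 RefSeq starts is shown. Capitals mark GC boxes, the word GGGCGG on either strand, which the transcription factor SP1 can bind.
Sema7a: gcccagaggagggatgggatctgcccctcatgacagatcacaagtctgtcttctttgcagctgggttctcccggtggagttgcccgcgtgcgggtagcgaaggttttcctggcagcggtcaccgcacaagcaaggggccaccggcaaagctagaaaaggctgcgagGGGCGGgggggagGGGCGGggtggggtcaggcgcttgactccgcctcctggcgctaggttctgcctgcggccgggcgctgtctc
Sema4b: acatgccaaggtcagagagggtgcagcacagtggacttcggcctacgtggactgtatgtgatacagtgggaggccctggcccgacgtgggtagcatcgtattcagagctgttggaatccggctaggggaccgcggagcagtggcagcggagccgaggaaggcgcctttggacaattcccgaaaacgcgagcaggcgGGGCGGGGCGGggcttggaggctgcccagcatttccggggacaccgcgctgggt
Sema3a: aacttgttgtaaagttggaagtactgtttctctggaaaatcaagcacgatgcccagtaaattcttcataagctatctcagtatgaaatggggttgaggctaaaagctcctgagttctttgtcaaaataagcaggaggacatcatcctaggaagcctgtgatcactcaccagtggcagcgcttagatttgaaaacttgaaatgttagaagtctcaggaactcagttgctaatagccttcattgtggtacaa
Plxnb2: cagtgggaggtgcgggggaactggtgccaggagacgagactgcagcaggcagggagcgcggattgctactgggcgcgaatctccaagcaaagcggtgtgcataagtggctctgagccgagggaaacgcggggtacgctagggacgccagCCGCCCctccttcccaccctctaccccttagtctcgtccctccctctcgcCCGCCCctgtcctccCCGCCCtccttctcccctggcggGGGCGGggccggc

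RefSeq windows were found for 9 of the 10 members, all but Plxna1, 11 windows in all. A GC box was present in 10 of these 11 windows, against 32.7% of all 32851 windows of the same length. Sema7a held 2 such words, 84 and 71 bases before the start, and 66.4% of its window was G or C, where the median window had 52.4%. Sema4b held 2 overlapping words and 64.4% G or C, and the window of Plxnb2 held 4 words and 69.2%. The window of Sema3a was the 1 without a GC box, and with 40.8% G or C it lay below the median window, as did that of Sema3e with 48.0%. The core promoter word TATAAA, searched on both strands, was found in none of the 11 windows, against 12.4% of all windows. None of the 11 held CCAAT on either strand, where 33.8% of all windows did. All windows here means those of 27025 genes, not limited to the 10123 genes compared for level. The words above describe the sequence only. Among members with a window, Sema7a and Sema4b, which differed 5-fold or more between doses, carried GC boxes, as did members that differed less. Plxna1, without a window, is not covered.

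Sema7a led the semaphorins at 100 µM and was under 1 FPKM at 300 µM. Its level was 33.4 FPKM at the lower dose and 0.49 FPKM at the higher, 68.1-fold lower. At the estimated depth these levels rest on about 2036 fragments (exact 95% Poisson interval 1949 to 2126) and about 31 fragments (21.1 to 44.0). The log2 ratio of the levels was -6.09, with an exact 95% binomial counting interval of -6.67 to -5.60. These intervals cover counting error only and hold no variation between cultures. After adding 1 to each FPKM, as was done for all genes, the log2 ratio was -4.53, rank 1 from the bottom among the 10123 genes compared, those whose 2 values average 1 FPKM or more. The pseudocount of 1 understates the change of genes at low levels.

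The genes with levels most like those of Sema7a were found by Euclidean distance over the 2 values log2(FPKM + 1). The 5 nearest were Ddit4l (distance 0.13, 30.4 and 0.48 FPKM), Trp53inp1 (0.24, 30.8 and 0.72 FPKM), Has2 (0.44), Akap2 (0.45) and Odaph (0.50). With 2 libraries this likeness means only that both levels were similar.

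None of the 4 secreted semaphorins of class 3 that reached a mean of 1 FPKM was lower at 300 µM on the scale as deposited. Sema3a, which binds Nrp1 and signals through class A plexins, had 10.5 FPKM at the lower dose and 17.7 FPKM at the higher, 1.69-fold higher. Its log2 ratio after adding 1 was 0.70, within 2-fold. Sema3c, a ligand of both neuropilins, stood at 1.37 and 1.51 FPKM (log2 ratio 0.08). Sema3e, which can bind plexin D1 without a neuropilin, stood at 1.19 and 1.47 FPKM (log2 ratio 0.17). The counting intervals of Sema3c (log2 -0.19 to 0.48) and of Sema3e (-0.01 to 0.62), both without the pseudocount, include 0 on the scale as deposited. Sema3b, outside the 10 genes, stood at 2.53 and 3.71 FPKM (log2 ratio 0.42). All 4 class 3 genes compared thus had a ratio above 0, but with equal sums of FPKM in both libraries Sema3c and Sema3e were at -0.13 and -0.04. With the ratio of the median gene set to 0, Sema3c and Sema3e were at 0.38 and 0.47, so their direction depends on the scale.

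Of the 3 membrane-bound semaphorins of classes 4 and 6 that reached a mean of 1 FPKM, Sema4b and Sema4c were at least 2-fold lower at 300 µM and Sema6c was within 2-fold. Sema4b, a transmembrane semaphorin, had 4.17 FPKM at the lower dose and 0.23 FPKM at the higher, 18.1-fold lower, with a log2 ratio of -2.07 after adding 1. Its lower level rests on about 18 fragments (10.7 to 28.4). Sema4c, a ligand of plexin B2, stood at 3.83 and 0.85 FPKM (log2 ratio -1.38, which is -0.80 with the trend of the ratio with transcript length and GC content removed, an alternative chosen after seeing the data). Sema6c stood at 1.77 and 0.54 FPKM, a log2 ratio of -0.85 that lies within 2-fold once 1 is added. Summed over the 6 class 4 genes the level was 8.59 FPKM and then 1.18 FPKM at the higher dose, whereas the 7 class 3 genes summed to 16.1 and 25.01 FPKM.

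**Figure D1:**
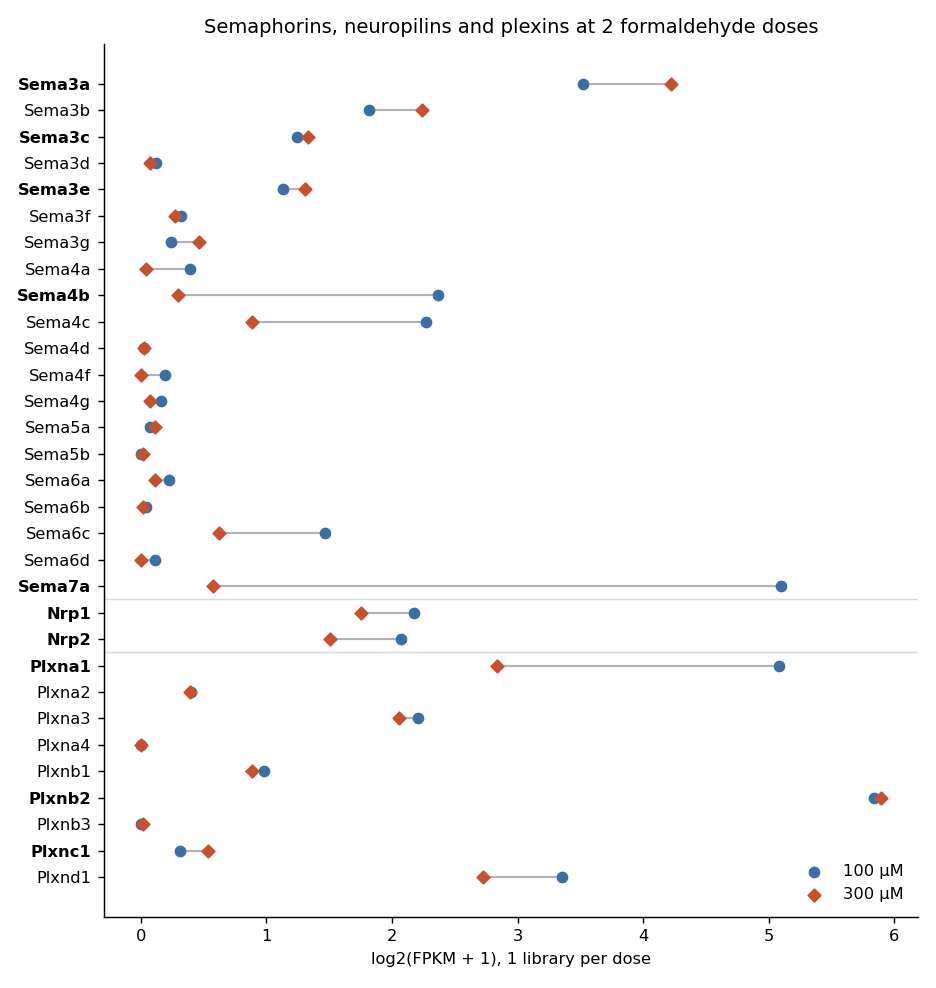
Level of each of the 31 semaphorin, neuropilin and plexin genes as log2(FPKM + 1), with circles for the library at 100 µM, diamonds for that at 300 µM and the 10 named genes in bold. The widest gap is that of Sema7a, at 33.4 and 0.49 FPKM, while Plxnb2 is the highest gene in both libraries and its symbols nearly coincide.

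The leading semaphorin was therefore a different gene at each dose. At 100 µM Sema7a held 55.5% of the summed semaphorin FPKM and Sema3a 17.4%. At 300 µM Sema3a held 64.5% and Sema7a 1.79%. Within a library such shares do not depend on the scaling between libraries. Sema7a was 3.19 times as abundant as Sema3a at 100 µM, and Sema3a was 36.1 times as abundant as Sema7a at 300 µM. The sum over all 20 semaphorins was 60.1 FPKM at the lower dose and 27.4 FPKM at the higher, and over the 19 without Sema7a it was 26.8 and 26.9 FPKM. On the scale as deposited, the lower sum was thus that of Sema7a, while among the others the higher class 3 levels and the lower levels of classes 4 and 6 offset each other.

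Both neuropilins lay within 2-fold between the doses. Nrp1, the co-receptor of Sema3a and of VEGF-A, had 3.52 FPKM at the lower dose and 2.37 FPKM at the higher (log2 ratio -0.42). Nrp2, the preferred co-receptor of other class 3 semaphorins, stood at 3.20 and 1.84 FPKM (log2 ratio -0.56). For the median gene the log2 ratio was -0.30, and relative to it Nrp1 and Nrp2 stood at -0.12 and -0.26. Their order was the same in both libraries, Nrp1 being 1.10 and 1.29 times as abundant as Nrp2, and at 100 µM their levels differ little. With the length and GC trend removed, both signs turned, to 0.12 and 0.32.

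Of the plexins among the members, Plxna1 was at least 2-fold lower and Plxnb2 was within 2-fold. Plxna1, a class A plexin that pairs with neuropilins for class 3 signals, had 32.9 FPKM at the lower dose and 6.14 FPKM at the higher. That is 5.36-fold lower, a log2 ratio of -2.25 after adding 1, resting on about 5509 and 1077 fragments. Of its 50-base words 7.19% also occur in transcripts of other genes, the highest share among the 10 genes. Plxnb2, a receptor of class 4 semaphorins, stood at 56.3 and 58.6 FPKM, a log2 ratio of 0.06 that was -0.31 with equal sums of FPKM, 0.45 with the TMM factor (another scaling between the libraries) and 0.93 with the length and GC trend removed. Plxnc1, the plexin that binds Sema7a, stood at 0.24 and 0.45 FPKM, about 32 and 64 fragments. Its mean was under 1 FPKM, so it was not compared with the other genes, and without the pseudocount its log2 ratio was 0.91 (counting interval 0.30 to 1.59).

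**Figure D2:**
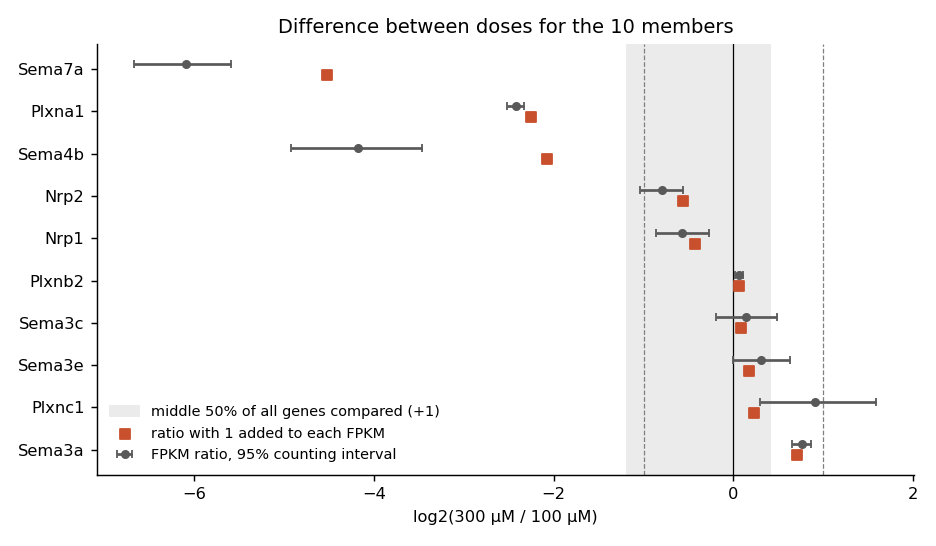
Log2 ratio of 300 µM to 100 µM for the 10 genes: grey circles are FPKM ratios with 95% binomial counting intervals, red squares are ratios after adding 1 FPKM, the grey band holds the central 50% of all genes compared, and dashed lines mark 2-fold. Sema7a (-4.53), Plxna1 (-2.25) and Sema4b (-2.07) lie left of the band, and Sema3a (0.70) lies right of it.

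The 4 plexins that reached a mean of 1 FPKM kept the same order of levels. Plxnd1, the receptor of Sema3e, stood at 9.25 and 5.63 FPKM (log2 ratio -0.63, which is 0.30 with the length and GC trend removed). Plxna3 stood at 3.63 and 3.16 FPKM (log2 ratio -0.15, which is 0.15 relative to the median gene). The order Plxnb2, Plxna1, Plxnd1, Plxna3 held at both doses, but at 300 µM Plxna1 and Plxnd1 were close, at 6.14 and 5.63 FPKM. Plxnb2 was 1.71 times as abundant as Plxna1 at 100 µM and 9.55 times at 300 µM. Its share of summed plexin FPKM was 54.3% and 78.0%, and that of Plxna1 31.8% and 8.17%. The 9 plexins summed to 103.6 and 75.2 FPKM, and to 70.7 and 69.1 FPKM without Plxna1.

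**Figure D3:**
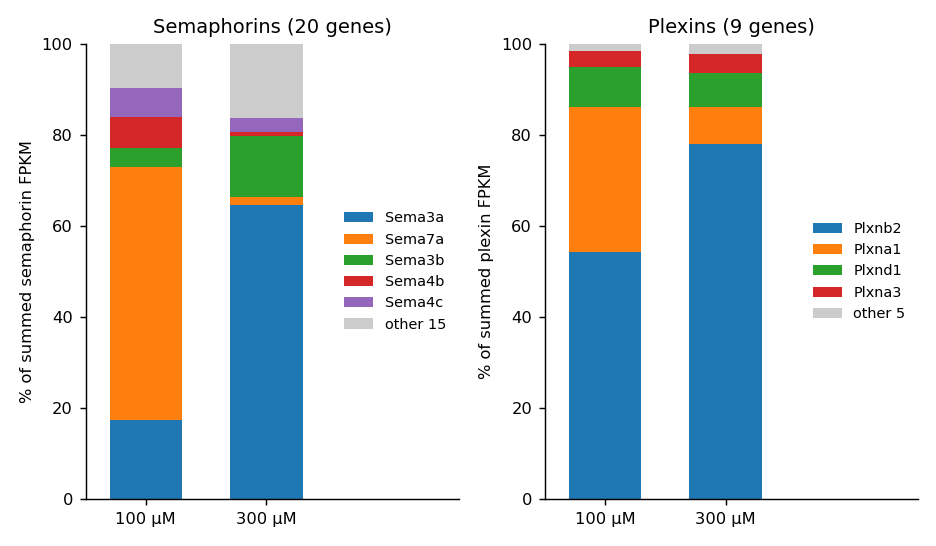
Share of each gene in the summed FPKM of the 20 semaphorins (left) and the 9 plexins (right) in each library, in percent, with the remaining genes in grey. Sema7a fills 55.5% of the semaphorin bar at 100 µM and 1.79% at 300 µM, while Plxnb2 holds the largest share of the plexin bar in both.

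Of the 10 genes, 9 reached a mean of 1 FPKM. Of these, 3 were at least 2-fold lower at 300 µM (Sema7a, Plxna1 and Sema4b) and 0 at least 2-fold higher. Among all genes compared 29.8% were lower and 6.09% higher by that size. The 3 of 9 lie near that background, and as Sema7a was chosen on this contrast nothing is read from the count. The median log2 ratio of the 9 was -0.42, against -0.30 for all genes. After centring on the median gene, 3 were lower and 1 higher (Sema3a, at 1.004), where 22.3% of all genes were lower and 14.5% higher. Over the complete family of 31 genes, 14 reached the filter, 4 were lower and 0 higher, with a median of -0.49. The gene added was Sema4c. The other 17 genes stood at no more than 0.97 FPKM in either library, among them Sema4d, the class 4 semaphorin known from osteoclasts, at 0.02 FPKM in both, and its receptor gene Plxnb1 at 0.97 and 0.85 FPKM. These low genes were named after their values were seen.

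Sema7a can also act through an integrin, and genes for that receptor were present at both doses. Itgb1, the beta1 integrin subunit, stood at 280.0 and 198.1 FPKM (log2 ratio -0.50). Itga1, the alpha1 subunit, stood at 1.27 and 1.49 FPKM (log2 ratio 0.13, which is -0.08 with equal sums of FPKM). Of the 11 other semaphorin receptors and co-receptors listed, 3 reached the filter. Erbb2, a receptor tyrosine kinase that associates with class B plexins, was the one at least 2-fold lower, at 14.1 and 4.83 FPKM (log2 ratio -1.37). With the length and GC trend removed its log2 ratio was -0.64, within 2-fold.

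Among the 3 compared genes of ligands that share neuropilins with semaphorins, 1 was at least 2-fold lower, 0 were higher and 2 lay within 2-fold. Vegfa, the main vascular endothelial growth factor gene, had 91.8 FPKM at the lower dose and 7.08 FPKM at the higher (log2 ratio -3.52). The other 2 VEGF genes that reached the filter, Vegfb (20.3 and 39.1 FPKM) and Vegfd (3.28 and 5.32 FPKM), had log2 ratios of 0.91 and 0.56 and were named after their values were seen. Of the 4 genes of semaphorin-cutting proteases that reached the filter, 3 were at least 2-fold lower and 0 higher, where 29.8% and 6.09% of all genes were. Furin, a convertase that cleaves class 3 semaphorins, stood at 34.0 and 3.49 FPKM (log2 ratio -2.96). The shedding protease gene Adam10 stood at 16.2 and 5.89 FPKM, and the convertase gene Pcsk7, with 10.7% of its words shared with other genes, at 7.82 and 3.05 FPKM. Pcsk7 was within 2-fold after centring (-0.82), and with the TMM factor both Adam10 (-0.97) and Pcsk7 (-0.81) were. Both were also within 2-fold with a pseudocount of 5 (-0.96 and -0.67) and with the length and GC trend removed (-0.50 and -0.55). Furin was at -2.20 and -2.31 under these settings.

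Small GTPases near plexins and their regulators were mostly within 2-fold. Of 18 genes, 5 (27.8%) were lower and 1 (5.56%) higher, near the 29.8% and 6.09% of all genes. Rnd3, which encodes an atypical small GTPase, stood at 68.5 and 5.79 FPKM (log2 ratio -3.35). The exchange factor gene Arhgef12, which class B plexins recruit, stood at 4.89 and 0.80 FPKM, and Arhgap35, encoding a GTPase-activating protein, at 7.44 and 2.18 FPKM. With the length and GC trend removed, the log2 ratios of Arhgef12 and Arhgap35 were -0.59 and -0.37, and that of Rnd3 was -2.82. Farp1, related to a plexin A exchange factor, was the gene that was higher, at 6.78 and 21.2 FPKM (log2 ratio 1.51). Among 17 kinases and cytoskeletal effectors, 4 (23.5%) were lower and 2 (11.8%) higher, and after centring 2 were lower and 4 higher. Of all genes compared, 22.3% were lower and 14.5% higher after centring. The kinase genes Rock1 and Rock2 had log2 ratios of -1.39 and -1.35, and Gsk3b, a kinase of the Sema3a pathway, -1.08. With the length and GC trend removed these were -0.34, -0.25 and -0.04, all within 2-fold, as Gsk3b was after centring (-0.78). Fyn and Cdk5, kinases that act below plexin A in axons, had log2 ratios of 1.33 and 1.26 (1.88 and 1.42 with that trend removed). Their levels were 2.21 and 7.09 FPKM for Fyn and 10.3 and 25.97 FPKM for Cdk5.

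Over these 60 other pathway genes, 45 reached the filter, of which 14 (31.1%) were lower and 3 (6.67%) higher, close to the 29.8% and 6.09% among all genes. Their median log2 ratio was -0.32. After centring on the median gene, 10 were lower and 7 higher, where 22.3% of all genes compared were lower and 14.5% higher.

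**Figure D4:**
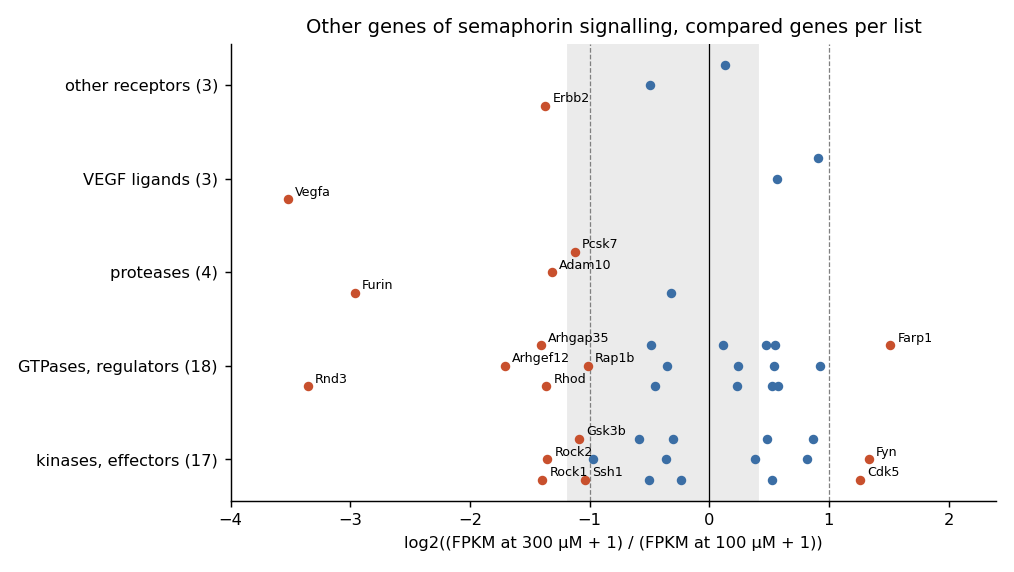
Log2 ratio after adding 1 FPKM for the 45 other pathway genes compared, by list, with the number compared in parentheses. Red and labelled points lie beyond 2-fold (dashed lines), and the grey band holds the central 50% of all genes. Vegfa (-3.52), Rnd3 (-3.35) and Furin (-2.96) lie farthest to the left.

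Properties that the choice of genes did not use differed among the 10. All 10 had a transcript longer than the median of the genes compared (3085 bases), from 3297 bases for Sema7a to 9034 for Plxna1 in GENCODE release M21. Across 10093 genes, which are not independent, the log2 ratio had a Spearman correlation of -0.41 (Pearson's r -0.30) with transcript length, a description that shares the same 2 libraries. With the trend with length and GC content removed from the ratios, Sema7a, Plxna1 and Sema4b stood at -4.04, -1.22 and -1.48, and Sema3a and Sema3e at 1.70 and 1.21. The part of transcript length in the differences was not tested. The 3 class 3 members lie on chromosome 5 of GRCm38. Their transcripts had 40.8% (Sema3a), 42.7% (Sema3c) and 42.0% (Sema3e) G or C, where Sema7a had 57.7% and the median gene 50.1%. Plxna1 and Sema4b, also at least 2-fold lower, had 57.3% and 56.6%, but Plxnb2, within 2-fold, had 57.3% as well. With the share of G or C, the log2 ratio had a Spearman correlation of 0.16 across the same 10093 genes. The part of GC content in the differences was not tested. The 3′ untranslated regions of Sema3a, Sema3c and Sema3e held 11, 10 and 8 copies of the word ATTTA, the core of AU-rich elements. These regions were 2965, 2515 and 3902 bases long, and a longer region has more room for the word. Sema7a held 2 in 1267 bases, Sema4b 1 in 1195, Plxna1 3 in 3065 and Plxnb2 0 in 735. The medians of the genes compared were 2 copies and 1131 bases. Nrp1 held 0 in 552 bases, Nrp2 5 in 3061 and Plxnc1 5 in 2323. Across the same 10093 genes the log2 ratio had a Spearman correlation of -0.30 with the number of these words and of -0.35 with the length of the 3′ untranslated region. The part of these words in the differences was not tested.

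**Figure D5:**
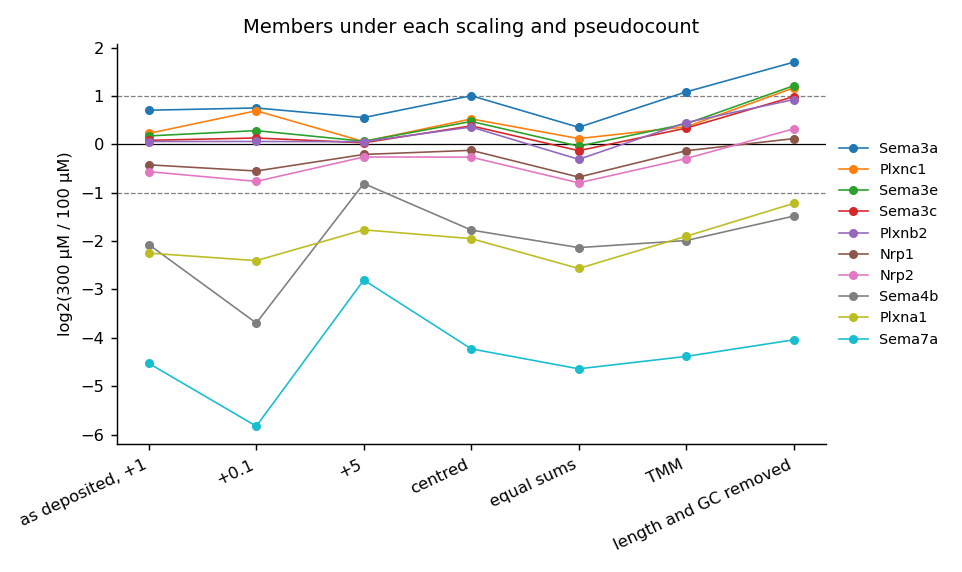
Log2 ratio of 300 µM to 100 µM for the 10 genes under each pseudocount and scaling, with lines that only link the values of a gene and dashed lines at 2-fold. Sema7a is the lowest gene under each of the 7 settings, and Sema3c, Sema3e and Plxnb2 are below 0 with equal sums of FPKM.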

How the data were processed

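RNA of 2 libraries, 1 per dose, was analysed. Per the file headers, the values deposited by the authors are FPKM per gene, written to 2 decimals. The submitters' processing notes list Bowtie2 and RSEM. Neither their versions nor a build or gene set is given in the sources used here. Both tables list 17215 NCBI gene numbers, of which 17179 were named from RefSeq (GRCm38.p6) and 7 from GENCODE release M21. An FPKM depends on the total of its library, and RSEM divides reads among isoforms and copies.

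A pseudocount of 1 was added to each FPKM and the log2 ratio of 300 µM over 100 µM taken, where the 2 values averaged 1 FPKM or more. Lower or higher means at least 2-fold on this scale. Depth was estimated from low values of genes with 1 transcript under 1500 bases. Steps of 54 and 51.5 bases per read placed 61.4% of 114 and 61.3% of 80 values within 0.12 of a whole read, which corresponds to a depth of about 18500000 and 19400000 fragments. Fragments per gene used the longest coding transcript, so they are approximate, and fragments without molecular identifiers are not independent molecules.

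Members, lists and alternatives were chosen with earlier results of these data known. Named genes were all members, relatives that passed this filter, up to 3 per pathway list and direction beyond 2-fold, Itga1, Itgb1, Vegfa, and the 5 nearest to Sema7a (predicted genes left out). Steps were tested on simulated data. Python 3.11.15 was used with pandas 2.3.3, numpy 2.4.6 and scipy 1.17.1, and matplotlib 3.10.9 drew the plots.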

Additional observations from a re-analysis of the deposited data

How the results depend on the processing

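No paired analysis was possible because each dose has 1 library, and for the same reason no library could be left out. The settings varied were the pseudocount (0.1 or 5), the filter (none, or an average of 10 FPKM), the size (1.5-fold or 3-fold) and the scale (median gene at 0, equal sums of FPKM, or an unweighted TMM factor that trims the outer 30% of ratios and 5% of levels). A fit of the ratios on length and GC of the transcript, with its trend removed, was added after seeing the data. Of the 10 members, Sema7a, Plxna1 and Sema4b stayed below 0 in each, and the number at least 2-fold lower was 3, or 2 with a pseudocount of 5 or an average of 10 FPKM. The number of members higher was 0, and 1 after centring, with the TMM factor and at 1.5-fold, and 2 with the trend removed. The same counts of genes higher held over the family of 31. In that family 4 genes were lower, but 5 with a pseudocount of 0.1, 6 at 1.5-fold, 3 at 3-fold, 3 with the trend removed (Sema4c, at -0.80, no longer counted), and 2 with a pseudocount of 5 and at an average of 10 FPKM. Of the other pathway genes 14 were lower, but 10 after centring, 15 with a pseudocount of 0.1 and with equal sums, 16 at 1.5-fold, 5 with a pseudocount of 5, 7 at an average of 10 FPKM, 8 with the TMM factor, 4 at 3-fold and 4 with the trend removed. The pathway genes higher numbered 3, and 7 after centring, with the TMM factor and at 1.5-fold, 2 with a pseudocount of 5, at an average of 10 FPKM and with equal sums, 0 at 3-fold and 9 with the trend removed. By construction a count cannot rise at 3-fold, with a pseudocount of 5 or at an average of 10 FPKM (4 genes of the family). Nor can it fall at 1.5-fold, with a pseudocount of 0.1 or without a filter. Under the other settings the cause of a changed count was not tested. Shares over all genes are given only for the main setting (29.8% lower, 6.09% higher) and after centring (22.3% and 14.5%). Counts under every other setting have no such share beside them, so nothing about these genes is read from them. Equal sums shift the median gene to -0.62 and the TMM factor to 0.05, so differences of the size seen for Plxnb2, Sema3c, Sema3e, Nrp1 and Nrp2 depend on the scale. Low members (Plxnc1, Sema4b and Sema7a at 300 µM) rest on about 18 to 64 fragments.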
